A study of Mus musculus with 19 samples.

Results

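The genes described here are 3 receptors for fibroblast growth factors (Fgfr1, Fgfr2 and Fgfr3) and 7 genes that FGF signalling is known to induce in many embryonic tissues: the phosphatases Dusp4 and Dusp6, the Sprouty genes Spry1, Spry2 and Spry4, and the transcription factors Etv4 and Etv5. They were listed by name, and they are 10 of the 18193 mouse genes that the arrays name. The arrays read a transcript through a probe set, several short probes summed to 1 value, and a probe set was taken for a member where the platform annotation gives it that gene only. That left 22 probe sets: the one with the highest mean log2 signal stands for the gene, and the 12 others were followed beside it. Dusp4, Dusp6 and Spry1 have 1 probe set each.

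All samples were wild-type tissue of the outbred mouse strain ICR, with no treatment, and embryonic day (E) 0.5 was the day of the plug. Lens was dissected at 3 stages, E10.5, E11.5 and then E12.5 (n = 3 arrays each), beside 4 arrays of whole embryonic body that span these stages. The other series has E13.5 tooth germ (n = 3 arrays) beside 3 arrays of whole embryonic body that span E11.5 to E13.5. Whether arrays of a group hold separate litters or pools is not in the labels, so p-values measure the spread between these arrays, whose number limits the precision. The body groups span stages with no single stage per array in the labels, and they mix all tissues.

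FGFs bind receptor tyrosine kinases on the cell surface, together with heparan sulfate, and the receptors pass the signal through adaptors and Ras to the kinase ERK. Active ERK raises the transcription of Etv4 and Etv5, which act as nuclear effectors, and of inhibitors that act back on the same route: Dusp phosphatases remove phosphate from ERK, and Sprouty proteins hold back signalling between receptor and ERK. In the mouse eye, FGF signalling is needed for induction of the lens and for the lengthening and differentiation of lens fibre cells, and in the tooth FGFs pass between epithelium and mesenchyme. At E10.5 the lens placode has folded into a pit or early vesicle, and by E12.5 the posterior vesicle cells are becoming primary fibres.

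Promoter windows from RefSeq (build GRCm38.p6, 250 bases before to 50 after a transcript start) were matched by symbol for 6 of the members, with 8 windows in all. They were searched on both strands for CGGAAG and AGGAAG, short forms of the site that ETS factors such as Etv4 and Etv5 bind, which differ in their first letter only. Of the 32851 windows in the table, 16.9% hold the first and 35.4% the second. The 3 windows below are shown because they belong to a feedback gene that fell over lens time (Dusp6) and to the feedback gene and the receptor that rose (Spry1 and Fgfr3). Capitals mark matches, here as read from the opposite strand.
Dusp6, chr10:99262981-99263280, plus strand: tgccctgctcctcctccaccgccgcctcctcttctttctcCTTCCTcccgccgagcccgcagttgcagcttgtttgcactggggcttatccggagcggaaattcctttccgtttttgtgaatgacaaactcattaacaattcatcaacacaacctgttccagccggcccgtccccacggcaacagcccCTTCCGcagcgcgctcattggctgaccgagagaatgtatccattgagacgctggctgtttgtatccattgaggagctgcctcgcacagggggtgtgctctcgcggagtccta
Spry1, chr3:37639697-37639996, plus strand: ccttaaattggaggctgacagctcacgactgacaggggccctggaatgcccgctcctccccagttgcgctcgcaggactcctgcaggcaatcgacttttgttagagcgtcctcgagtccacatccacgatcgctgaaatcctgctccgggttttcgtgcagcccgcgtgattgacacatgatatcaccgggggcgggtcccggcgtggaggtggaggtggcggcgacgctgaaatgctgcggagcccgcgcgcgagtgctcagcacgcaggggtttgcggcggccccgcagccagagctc
Fgfr3, chr5:33721474-33721773, plus strand: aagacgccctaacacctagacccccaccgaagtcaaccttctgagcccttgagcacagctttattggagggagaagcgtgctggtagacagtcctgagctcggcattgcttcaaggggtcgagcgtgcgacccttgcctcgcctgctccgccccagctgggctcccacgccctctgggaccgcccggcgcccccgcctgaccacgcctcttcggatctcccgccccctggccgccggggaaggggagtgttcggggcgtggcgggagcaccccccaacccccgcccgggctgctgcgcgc
The Dusp6 window held 1 match to each motif, while the Spry1 window and both Fgfr3 windows held 0. Of the remaining windows, that of Fgfr2 held 2 matches to AGGAAG, 1 of the 2 windows of Etv5 held 1 such match, and that of Spry2 held 0. These are letter matches only.

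Some facts of the arrays bear on the results. All 8 lens markers were higher in lens than in body at each stage, with array means of 10.89 to 11.62 in lens and 6.55 to 6.62 in body on the log2 scale. In tooth germ 7 of 8 dental mesenchyme markers and 2 of 3 tested dental epithelium markers were higher than in body. Replicate 3 of E10.5 stood apart from the other E10.5 arrays: the fibre crystallin gene Crygb read 13.46 there, against 4.03 and 3.89. Signals of 9 bacterial hybridisation controls split the lens series into arrays of high control signal (E10.5 replicates 1 and 2, E11.5 replicate 1, E12.5 replicate 1, body replicates 2 and 3) and of low control signal (the other 7), with a gap of 0.84 on the log2 scale. The high set holds 1 array of E11.5 and 1 of E12.5, and the low set holds 1 of E10.5, so values within a set often rest on 1 array in one group, which limma then assumes to vary like the others. In the tooth series that split is tooth germ against body, so there it cannot be told apart from tissue. The series also differ: between their bodies 63.6% of 13320 tested genes were called, so levels are not set across series, only differences from each series' own bodies.

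**Figure D1:**
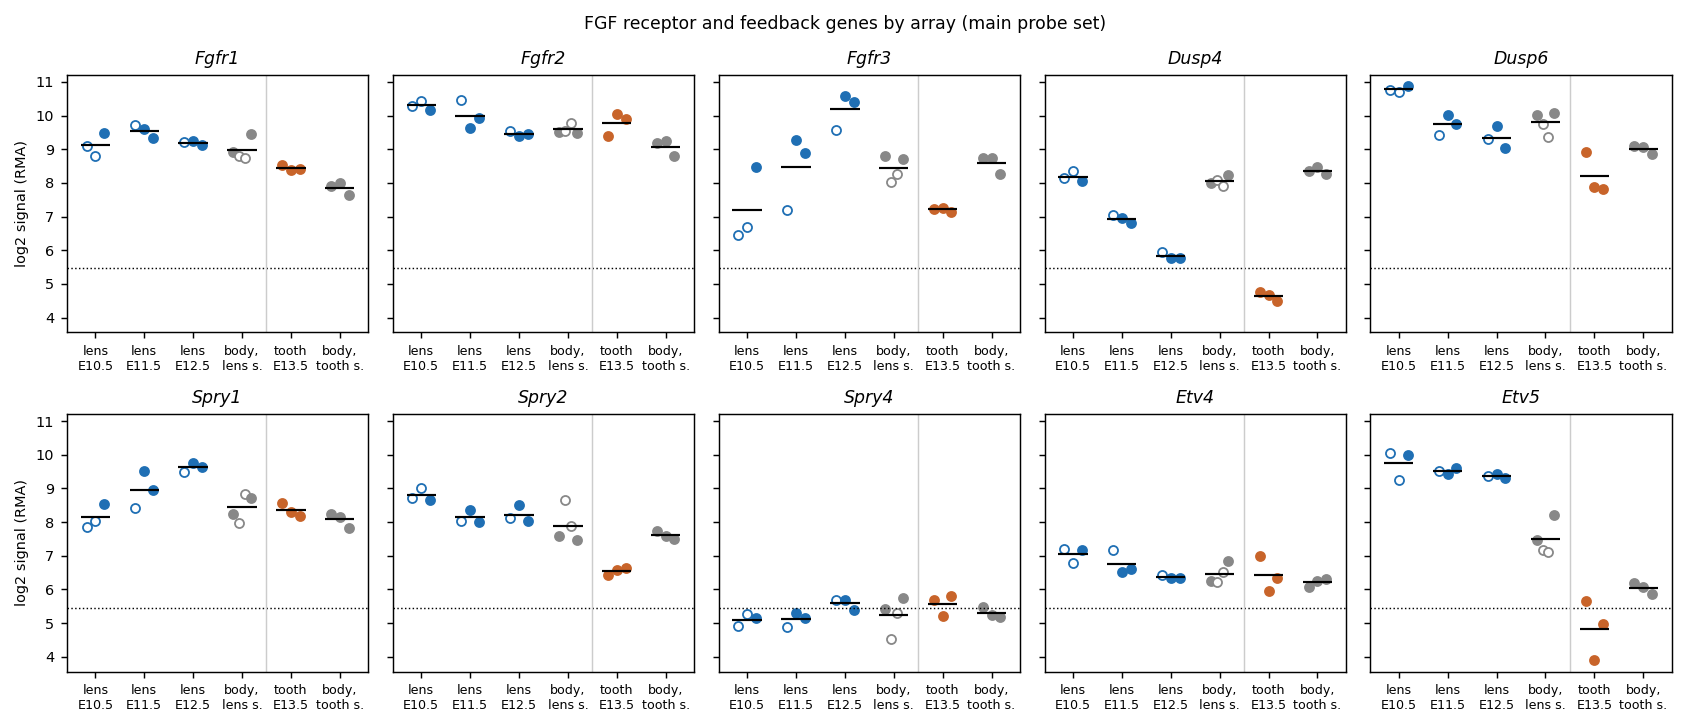
Log2 signal (y axis) of the main probe set of each gene on each array (points), with group means (bars), for lens at 3 stages and body of the lens series, then tooth germ and body of the tooth series. Open points are lens-series arrays of high bacterial control signal, and the dotted line is the filter at 5.46. Fgfr3 and Spry1 climb over lens stages, Dusp4 and Dusp6 descend, and Etv5 in lens lies above the bodies at every stage.

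Fgfr3 was the receptor that changed most. In the lens it was 7.90-fold higher at E12.5 than at E10.5, and it stood below whole body at E10.5, a call that did not hold in every setting, and above it at E12.5. Fgfr2 was 1.79-fold lower at E12.5 than at E10.5, and Fgfr1 differed between those stages by 0.06 ± 0.19 (log2, SE). The mean changes of both Fgfr2 and Fgfr3 were larger than the spread between arrays, and that of Fgfr1 was not.

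Fgfr3 (Entrez 14184, chr5:33721724-33737068) encodes the receptor best known for restraining bone growth, and it is expressed in fibre cells of the mouse lens. Its main probe set read 6.45, 6.69 and 8.47 (log2 signal, as are all levels below) at E10.5, 7.20, 9.27 and 8.90 at E11.5, 9.57, 10.59 and 10.39 at E12.5, and 8.81, 8.02, 8.26 and 8.72 in the lens-series bodies. All E12.5 arrays exceeded all others, while E11.5 overlapped both E10.5 and body. The difference between E12.5 and E10.5 was 2.98 ± 0.48 (limma, adjusted p = 0.000118). The first step, E11.5 minus E10.5, was 1.26 ± 0.48 (limma, adjusted p = 0.168) and the next 1.73 ± 0.48 (limma, adjusted p = 0.034). Against body, Fgfr3 was lower at E10.5, a difference of −1.25 ± 0.44 (limma, adjusted p = 0.0367), and 3.32-fold higher at E12.5, a difference of 1.73 ± 0.44 (limma, adjusted p = 0.00362). At E11.5 lens and body differed by 0.00 ± 0.44, so that in order of level E12.5 came first, E11.5 and body were not separated, and E10.5 came last.

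Fgfr3 levels also followed the control-signal sets: at E10.5 and E11.5 the arrays of high control signal (6.45, 6.69 and 7.20) all read below those of low control signal (8.47, 9.27 and 8.90). At E12.5 the array of high control signal (9.57) likewise read below the others (10.39 and 10.59). The bodies of high control signal also read below those of low control signal. Within the high set the E12.5 minus E10.5 difference was 3.0, with 1 array at E12.5, and within the low set it was 2.02, with 1 array at E10.5. The E10.5 difference from body was −1.57 within the high set and −0.30 within the low set, where it was not called (limma, adjusted p = 0.451). At E11.5 the high set alone gave −0.94. Without E10.5 replicate 3, the difference between E12.5 and E10.5 was 3.61 and that between E10.5 and body −1.89. The call for E10.5 against body was lost without E10.5 replicate 1 or 2 and without body replicate 1 or 4, with values of −0.88 to −1.16. The first step was called without E10.5 replicate 3 or E11.5 replicate 1, at 1.89 and 1.88. The call for E12.5 against E11.5 was lost without E11.5 replicate 1, where the difference was 1.10, and without E12.5 replicate 2 or 3.

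The second Fgfr3 probe set, whose suffix marks a set that takes in alternative transcripts of the gene, moved like the first. It read 5.36, 5.61 and 6.55 at E10.5, 6.79, 7.22 and 7.03 at E11.5, 8.49, 8.73 and 8.80 at E12.5, and 6.82, 6.73, 7.10 and 7.20 in body. Here the stages did not overlap, and the steps were 1.17 ± 0.27 between E11.5 and E10.5 (limma, adjusted p = 0.0152) and 1.66 ± 0.27 between E12.5 and E11.5 (limma, adjusted p = 0.000695). The full change was 2.83 ± 0.27, and the differences from body were −1.12 ± 0.25 at E10.5 and 1.71 ± 0.25 at E12.5. Both probe sets thus placed E10.5 lens below body and E12.5 lens above it by similar amounts.

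Fgfr2 (Entrez 14183, chr7:130162451-130266808) encodes a receptor of epithelia that is needed in early lens development. Its main probe set read 10.28, 10.44 and 10.17 at E10.5, 10.45, 9.61 and 9.93 at E11.5, 9.53, 9.39 and 9.46 at E12.5, and 9.52, 9.55, 9.79 and 9.49 in body. E10.5 lay above body without overlap, by 0.71 ± 0.18 (limma, adjusted p = 0.00524), and E12.5 overlapped the bodies, at −0.13 ± 0.18 (limma, adjusted p = 0.601). The E12.5 minus E10.5 difference was −0.84 ± 0.20 (limma, adjusted p = 0.00386). It was −0.83 within the high control set and −0.75 within the low set, where it was not called (limma, adjusted p = 0.0703), nor was E10.5 against body there (0.66, limma, adjusted p = 0.0754).

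The other Fgfr2 probe sets shared the direction. One gave 0.65 ± 0.15 for E10.5 minus body and −0.45 ± 0.16 for E12.5 minus E10.5, the second of which missed the threshold. The other read 6.09, 6.02 and 5.49 at E10.5 and no more than 5.27 on any later lens array, against 4.49 to 4.59 in body. All body values of this probe set lie below 4.71, the 95th percentile of 27 negative control probe sets, and the later lens values lie near it. The size of its differences is limited by that floor.

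Fgfr1 (Entrez 14182, chr8:25518759-25575718) encodes a receptor used widely in the embryo. It read 9.11, 8.80 and 9.47 at E10.5, 9.73, 9.58 and 9.33 at E11.5, 9.20, 9.26 and 9.11 at E12.5, and 8.91, 8.79, 8.74 and 9.45 in body. Lens and body overlapped at every stage, and only E11.5 was called against body, by 0.58 ± 0.18 (limma, adjusted p = 0.0149). That call was lost without E11.5 replicate 1 (limma, adjusted p = 0.0644). The second probe set gave 1.06 ± 0.27 for the same difference, and the third gave −0.12, with no call.

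**Figure D2:**
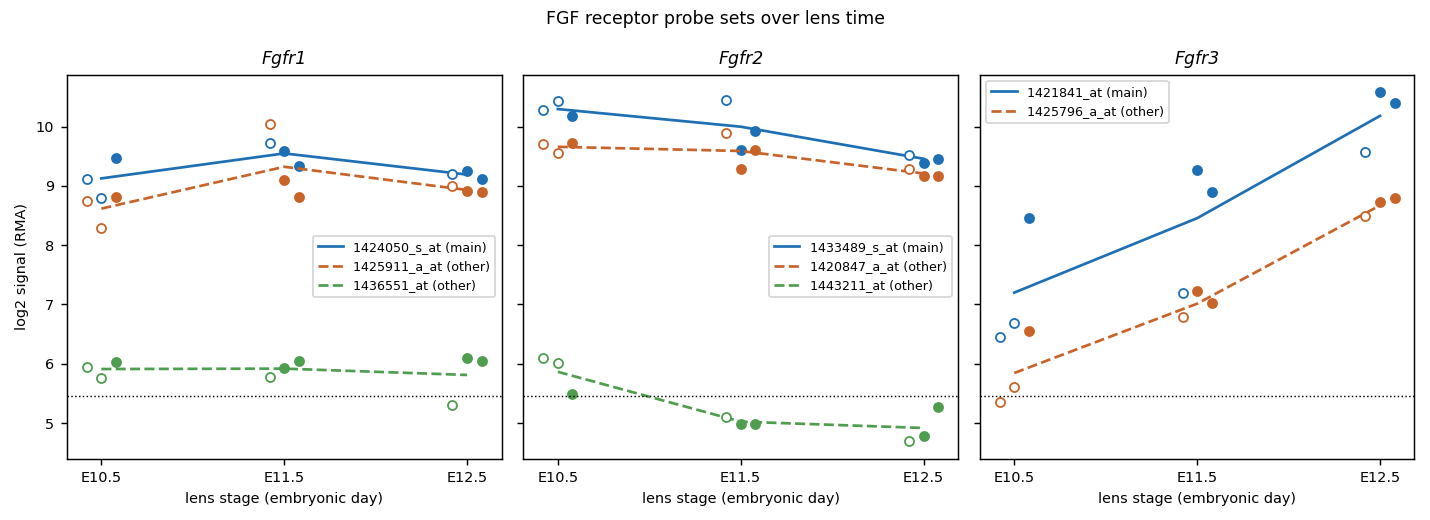
Log2 signal (y axis) of every probe set of Fgfr1, Fgfr2 and Fgfr3 against lens stage (x axis), with each array as a point and group means joined by lines. Open points are arrays of high bacterial control signal, filled points of low signal, and the dotted line is the filter at 5.46. Both Fgfr3 probe sets climb from stage to stage, and the main Fgfr2 probe set ends below where it starts.

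Since each probe set has its own brightness, receptors were compared by how their log2 ratios changed between stages within arrays, in 3 pairs. The Fgfr3 over Fgfr2 ratio was higher at E12.5 than at E10.5 by 3.82 (exact permutation test over all assignments of the 9 lens arrays to stages, two-sided p = 0.00714, adjusted over the 3 pairs 0.0107). The Fgfr3 over Fgfr1 ratio was higher by 2.92 (exact permutation test, p = 0.00714, adjusted 0.0107), and the Fgfr1 over Fgfr2 ratio by 0.90 (exact permutation test, p = 0.0155, adjusted 0.0155). Relative to the E10.5 mean, the Fgfr3 over Fgfr2 ratio was −0.74, −0.65 and 1.39 at E10.5, −0.16, 2.75 and 2.06 at E11.5, then 3.14, 4.29 and 4.03 at E12.5. E11.5 replicate 1 lay among the E10.5 arrays in this ratio, while all E12.5 arrays exceeded all earlier ones. Within the high and low control sets the change in this ratio was 3.83 and 2.77, that of Fgfr3 over Fgfr1 was 2.75 and 2.31, and that of Fgfr1 over Fgfr2 was 1.08 and 0.46. Without E12.5 replicate 2 the Fgfr1 over Fgfr2 change was 0.84 (exact permutation test, adjusted p = 0.0661).

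Between E12.5 and E10.5 lens, 6 of the 10 genes were called: Fgfr3 and Spry1 were higher, and Fgfr2, Dusp4, Dusp6 and Etv4 were lower. The background was 22.1% of all tested genes called in either direction, 8.91% higher and 13.2% lower. The groups did not overlap for 8 of the 10, against 38.3% of all genes, and the median difference of the 10 was −0.49, against −0.01 over all genes. Neighbouring stages gave 2 calls each: for E11.5 minus E10.5 Dusp4 and Dusp6, both lower, against 4.26% of all genes called and 2.74% called lower, and for E12.5 minus E11.5 Fgfr3 higher and Dusp4 lower, against 6.46% called, 3.02% higher and 3.45% lower.

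**Figure D3:**
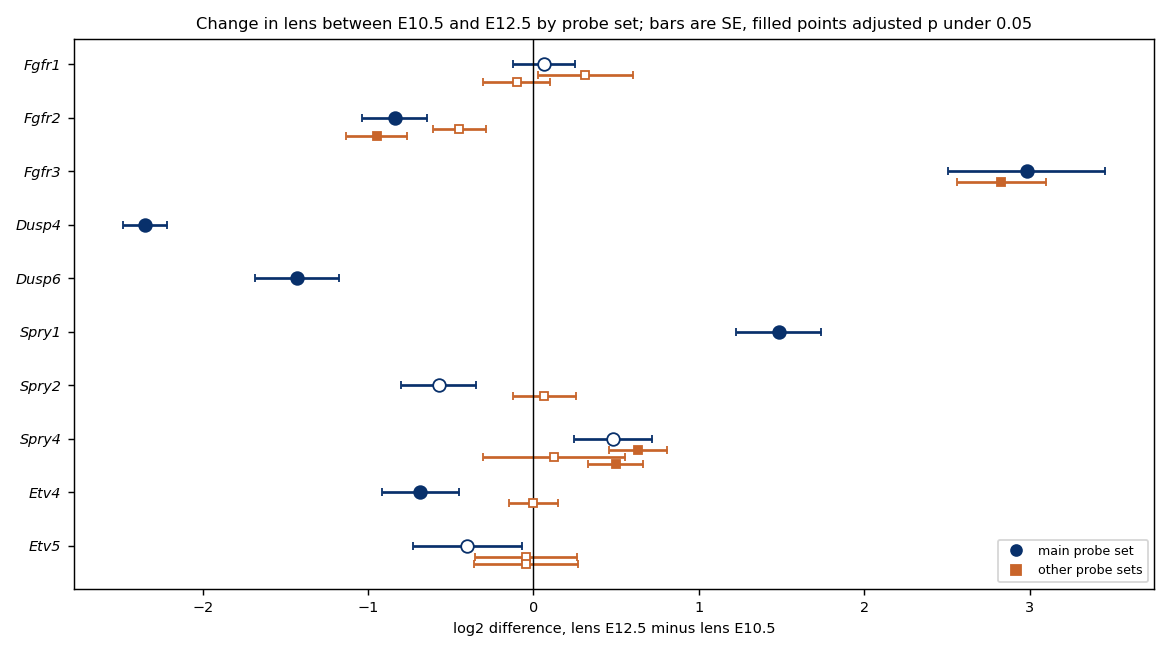
Log2 difference between lens at E12.5 and at E10.5 (x axis, bars are SE) for the main probe set of each gene and for its other probe sets. Filled symbols passed an adjusted p under 0.05. Both Fgfr3 probe sets and Spry1 lie right of 0, and Dusp4, Dusp6 and the 3 Fgfr2 probe sets lie left of it.

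The Dusp phosphatases fell together as the lens grew older. Dusp4 fell at both steps and Dusp6 at the first. Dusp4 (Entrez 319520, chr8:34807610-34819894), a nuclear phosphatase of ERK and related kinases, read 8.13, 8.34 and 8.06 at E10.5, 7.04, 6.96 and 6.82 at E11.5, 5.95, 5.77 and 5.77 at E12.5, and 7.99, 8.09, 7.90 and 8.24 in body. The stages formed 3 separate steps, and E10.5 lens overlapped body, with no call for that difference, except with arrays centred on their median (0.35, limma, adjusted p = 0.0296). Dusp4 was 5.09-fold lower at E12.5 than at E10.5, a difference of −2.35 ± 0.13 (limma, adjusted p = 6.71e-10), and the separate steps were −1.24 ± 0.13 and −1.11 ± 0.13. Its difference from body was −1.12 ± 0.12 at E11.5 and −2.23 ± 0.12 at E12.5, both called lower. The E12.5 minus E10.5 difference was −2.29 within both control-signal sets.

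Dusp6 (Entrez 67603, chr10:99263231-99267489) encodes a cytoplasmic phosphatase selective for ERK, and its promoter window is printed above. It read 10.76, 10.70 and 10.87 at E10.5, 9.43, 10.03 and 9.76 at E11.5, 9.31, 9.68 and 9.04 at E12.5, and 9.35 to 10.08 over the 4 bodies. Only the E10.5 arrays lay above all bodies, by 0.98 ± 0.24 (limma, adjusted p = 0.00298), and the later stages overlapped body. Within the low control set that difference was 0.83 (limma, adjusted p = 0.121). At E12.5 Dusp6 was 2.70-fold lower than at E10.5, a difference of −1.43 ± 0.25 (limma, adjusted p = 0.00033), with −1.42 and −1.51 within the high and low control sets. The first step was −1.04 ± 0.25 (limma, adjusted p = 0.0235), but its call was lost without any 1 of 5 of the 6 arrays involved (adjusted p from 0.0521 to 0.0808), E11.5 replicate 2 being the exception. Dusp4 and Dusp6 thus both declined in lens, yet from different starting points relative to body.

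The Sprouty genes did not move as one. Spry1 (Entrez 24063, chr3:37639947-37644599), an inhibitor of receptor tyrosine kinase signalling, read 7.87, 8.04 and 8.54 at E10.5, 8.42, 9.53 and 8.96 at E11.5, 9.50, 9.77 and 9.63 at E12.5, and 8.25, 7.97, 8.84 and 8.72 in body. E12.5 lay above E10.5 and above body without overlap. Spry1 was 2.80-fold higher at E12.5 than at E10.5, a difference of 1.48 ± 0.26 (limma, adjusted p = 0.000268), and 2.28-fold higher than in body, a difference of 1.19 ± 0.24 (limma, adjusted p = 0.000449). The change over lens time was 1.55 and 1.15 within the high and low control sets, and both single steps missed the threshold. The first step was called without E10.5 replicate 3 or E11.5 replicate 1, at 1.02 and 1.09, and the next without E11.5 replicate 2, at 0.94.

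Spry2 (Entrez 24064, chr14:105891947-105896819) encodes a related inhibitor that also binds the adaptor Grb2. It read 8.73, 9.01 and 8.66 at E10.5, 8.04, 8.37 and 8.01 at E11.5, 8.11, 8.51 and 8.04 at E12.5, and 7.58, 8.65, 7.87 and 7.47 in body. E10.5 lay above the later stages and, by 0.90 ± 0.21, above body (limma, adjusted p = 0.00251), which became 0.60 within the high control set (limma, adjusted p = 0.0534). Its difference between E12.5 and E10.5 was −0.57 ± 0.23 and missed the threshold (limma, adjusted p = 0.0816). Body replicate 2 was the highest of its group, and without it Spry2 was called above body at E11.5 and E12.5 as well, by 0.50 and 0.58. The second Spry2 probe set stayed between 4.4 and 5.8 on all arrays and gave no lens call.

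Spry4 was dim. Its main probe set lay between 4.52 and 5.82 on all 19 arrays and exceeded the filter on 6 of them, and no lens, tooth or body difference of it was called. Between E12.5 and E10.5 lens it differed by 0.48 ± 0.24 (limma, adjusted p = 0.161). Of its 3 other probe sets, 2 gave called differences for that comparison, 0.63 ± 0.17 and 0.50 ± 0.16 (limma, adjusted p = 0.0127 and 0.0365). The first of these was also called above body at E12.5, by 0.44 ± 0.16 (limma, adjusted p = 0.0373), while the others gave 0.21 and −0.88 with no call.

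Etv5 set the lens apart from the body at every stage. Etv5 (Entrez 104156, chr16:22381313-22439570), an ETS factor of the Pea3 group, read 10.06, 9.25 and 9.99 at E10.5, 9.51, 9.42 and 9.60 at E11.5, 9.38, 9.42 and 9.31 at E12.5, and 7.47, 7.17, 7.11 and 8.21 in body. Every lens array exceeded every body array. Lens exceeded body by 2.28 ± 0.31 at E10.5 (4.85-fold), by 2.02 ± 0.31 at E11.5 (4.05-fold) and by 1.88 ± 0.31 at E12.5 (3.68-fold), with limma adjusted p of 7.91e-06, 3.29e-05 and 5.41e-05. Over lens time it differed by −0.40 ± 0.33 (limma, adjusted p = 0.448). Both other probe sets agreed in size, with 1.84 and 1.76 at E10.5 and 1.79 and 1.71 at E12.5. Within the high and low control sets, where 1 group often held 1 array, the difference from body ranged from 2.24 to 2.52 and from 1.53 to 2.15 over the stages.

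Etv4 (Entrez 18612, chr11:101769747-101785310), its close relative, read 7.20, 6.78 and 7.17 at E10.5, 7.16, 6.51 and 6.59 at E11.5, 6.43, 6.33 and 6.33 at E12.5, and 6.25, 6.23, 6.50 and 6.86 in body. E10.5 lay above E12.5 but overlapped body. Its E10.5 minus body difference was 0.59 ± 0.22 (limma, adjusted p = 0.0426), and its E12.5 minus E10.5 difference was −0.68 ± 0.23 (limma, adjusted p = 0.0392). Both calls were lost within either control-signal set and without E10.5 replicate 1 or 3. The first was also lost without body replicate 1, 2 or 3, and the last without any 1 of the E12.5 arrays. The other Etv4 probe set stayed under the filter on every array.

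Set against body, 6 of the 10 genes were called at E10.5 (Fgfr2, Dusp6, Spry2, Etv4 and Etv5 higher, Fgfr3 lower), against 32.6% of all tested genes, 13.5% higher and 19.1% lower. At E11.5 there were 3 (Fgfr1 and Etv5 higher, Dusp4 lower), against 36.9%, 14.7% higher and 22.3% lower. At E12.5 there were 4 (Fgfr3, Spry1 and Etv5 higher, Dusp4 lower), against 43.3%, 16.6% higher and 26.7% lower. The shares at E11.5 and E12.5 were near or under the background. Every stage was set against the same 4 bodies, so the 3 sets of values are not independent. With each array centred on its median, lens minus body differences shifted upward by 0.23, 0.19 and 0.21 in order of stage, and the number called became 6, 5 and 7, against 44.4%, 43.0% and 49.1% of all genes under that setting. The share of higher genes among all called ones was 41.4%, 39.7% and 38.4% as deposited and 68.2%, 61.6% and 59.5% when centred. None of the called member differences from body changed direction, and the Fgfr3 difference at E10.5 became −1.02 (limma, adjusted p = 0.0556). The calls gained by centring, all higher in lens, were Dusp4 at E10.5, Fgfr2 and Spry1 at E11.5, and Fgfr1, Spry2 and Spry4 at E12.5.

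**Figure D4:**
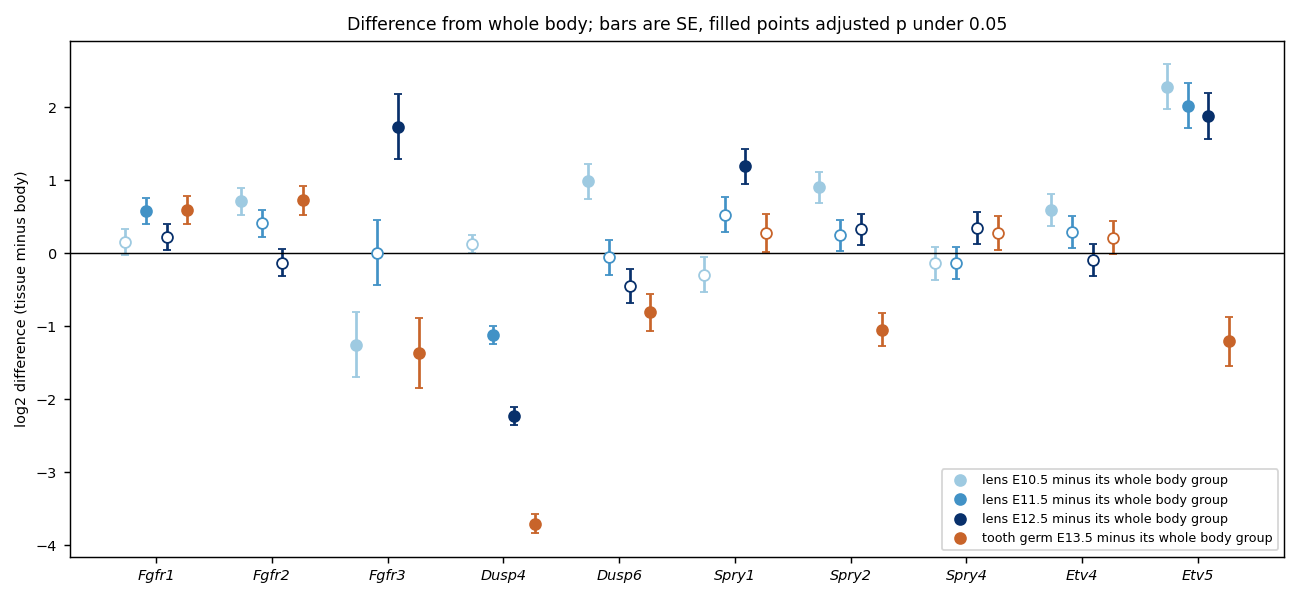
Log2 difference from the whole bodies of the same series (y axis, bars are SE) for each gene, in the 3 lens stages (light to dark blue) and then tooth germ of E13.5. Filled points passed an adjusted p under 0.05. Fgfr3 crosses 0 over lens time, Etv5 is higher in lens and lower in tooth germ, and Dusp4 is lowest in tooth germ.

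Marker lists of other cell types and of cell division also changed over the same lens stages. Of 7 surface ectoderm markers 6 were lower at E12.5 than at E10.5, with array means of 8.08 to 8.68 at E10.5, 6.07 to 6.12 at E11.5 and 5.09 to 5.32 at E12.5, and 3 of the 7 were below the negative control level at E12.5. All 9 tested cell division genes were lower at E12.5 than at E10.5, with array means of 10.66 to 10.93, 10.15 to 10.49 and 9.09 to 9.55 at the 3 stages. Of 8 mesenchyme markers 5 were higher and 2 lower, with array means of 7.33 to 8.05, 8.67 to 8.84 and 8.10 to 8.51, against 10.64 to 10.85 in body. Of 5 tested neural retina markers 3 were higher and 2 lower than body at each stage, and 1 was lower at E12.5 than at E10.5. Their summed linear signal was 11662.9 to 12736.7 at E10.5 and 6752.1 to 6950 at E12.5, against 2182.8 to 2849.4 in body. Of 6 macrophage markers 4 were higher and 1 lower than body at E10.5, and 3 were higher and 0 lower at E12.5. Pigment epithelium markers were highest at E11.5, at 6.45 to 6.64, with 2 of 6 below the negative control level. The part of these marker changes in those of the receptors and feedback genes was not tested. In bulk tissue fewer cells of a type and less RNA per cell cannot be told apart.

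In tooth germ, 7 of the 10 genes were called against body: Fgfr1 and Fgfr2 were higher, and Fgfr3, Dusp4, Dusp6, Spry2 and Etv5 were lower. The background was 41.9% of tested genes called, 16.6% higher and 25.3% lower, and the groups did not overlap for 6 of the 10, against 56.1%. The median difference of the 10 was −0.30, against −0.04 over all genes. Dusp4 gave the largest difference of the 10: it read 4.77, 4.68 and 4.50 in tooth germ, about the negative control level, against 8.34, 8.46 and 8.26 in body. The measured difference was −3.71 ± 0.13 (limma, adjusted p = 3.22e-13), and its size is limited by that floor.

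Spry2 read 6.44, 6.59 and 6.65 in tooth germ and 7.73, 7.58 and 7.51 in body, a difference of −1.05 ± 0.23 (limma, adjusted p = 0.0011). Fgfr2 read 9.41, 10.05 and 9.91 in tooth germ and 9.17, 9.23 and 8.80 in body, a difference of 0.72 ± 0.20 (limma, adjusted p = 0.00607), and its second probe set gave 0.68 ± 0.16. Neither gene's arrays overlapped between the groups. Fgfr1 read 8.54, 8.39 and 8.40 in tooth germ and 7.91, 8.01 and 7.63 in body, a difference of 0.59 ± 0.19 (limma, adjusted p = 0.0166) that was not called without tooth replicate 1 or body replicate 3. The other Fgfr1 probe sets gave 0.33 and 0.19 with no call, and the mean of all 3 gave 0.37 (limma, adjusted p = 0.0764). The third Fgfr2 probe set, near the negative control level, gave 0.19, and the second Spry2 probe set gave −0.30, neither called.

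Fgfr3 read 7.22, 7.25 and 7.15 in tooth germ and 8.74, 8.74 and 8.25 in body, a difference of −1.37 ± 0.48 (limma, adjusted p = 0.0266). The groups were well apart, but the second probe set gave 0.10 at levels of 4.43 to 5.35 in tooth germ and 4.54 to 5.16 in body, and the call was lost without any 1 tooth array or without body replicate 1 or 2. Etv5 read 5.65, 3.91 and 4.97 in tooth germ and 6.21, 6.07 and 5.87 in body, a difference of −1.21 ± 0.33 (limma, adjusted p = 0.00636). Its other probe sets gave 0.65 and −0.15 without a call, and without tooth replicate 2 the difference was −0.74 (limma, adjusted p = 0.0524). Dusp6 read 8.91, 7.87 and 7.82 in tooth germ and 9.10, 9.07 and 8.84 in body, with overlap, and differed by −0.81 ± 0.25 (limma, adjusted p = 0.015). That call was lost without tooth replicate 2 or 3 or body replicate 1. Spry1, Spry4 and Etv4 differed by 0.28, 0.28 and 0.21 with no call. Another Spry4 probe set gave 0.52 ± 0.17 (limma, adjusted p = 0.0222), while the remaining ones gave −0.31 and −0.14 with no call. The other Etv4 probe set, under the filter on every array, gave 0.40 ± 0.15 (limma, adjusted p = 0.0387).

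The lens difference at E12.5 and the tooth difference, each from its own bodies, differed for 6 of the 10 genes (5 with the larger value in lens, 1 in tooth germ), against 39.6% of all tested genes, 19.2% and 20.4% in those directions. The lens minus tooth gap was 3.10 ± 0.65 for Fgfr3, 3.09 ± 0.45 for Etv5, 1.48 ± 0.18 for Dusp4, 1.38 ± 0.31 for Spry2, 0.91 ± 0.35 for Spry1 and −0.85 ± 0.27 for Fgfr2. The Spry1 gap had the highest adjusted p of these (limma, adjusted p = 0.0464) and was lost when any of 9 single arrays was left out, and the Fgfr2 gap was lost without tooth replicate 2 (limma, adjusted p = 0.0522). The second Fgfr3 probe set gave 1.61 ± 0.37, and the other Etv5 probe sets gave 1.14 ± 0.42 and 1.86 ± 0.43, each called. In the tooth series these probe sets lay near the negative control level, with means of 4.66 to 5.12 in tooth germ and 4.47 to 4.82 in body. Their gaps thus mainly hold their lens differences from body, which were 1.71 for Fgfr3 and 1.79 and 1.71 for Etv5. The other Fgfr2 probe sets gave −0.48 ± 0.22 (limma, adjusted p = 0.091) and 0.18 ± 0.25 (limma, adjusted p = 0.609), and the second Spry2 probe set gave 0.29 ± 0.26 (limma, adjusted p = 0.417), so these gaps were called on the main probe set alone. The stages differ between the series as well as the tissues, so the gaps compare E12.5 lens with E13.5 tooth germ.

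The bodies of the series themselves differed for 5 of the 10 genes, 1 higher in the tooth series and 4 lower, against 63.6% of all tested genes, 31.8% higher and 31.8% lower. For Fgfr1, tooth-series minus lens-series body was −1.12 ± 0.18 on its main probe set and −4.07 ± 0.27 on the second, while the third gave 0.64 ± 0.19. The main and second Fgfr3 probe sets gave 0.13 ± 0.44 and −2.16 ± 0.25. The main Fgfr2 probe set gave −0.52 ± 0.18, and the others gave −2.91 ± 0.15 and 0.15 ± 0.17. The probe sets of each of these genes thus gave different values for the same pair of bodies.

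The rest of the pathway was followed in 6 lists, chosen with earlier results of these data known. Over all tested genes 8.91% were called higher and 13.2% lower for E12.5 minus E10.5 lens. Among 22 FGF ligand genes 10 were tested, and for E12.5 minus E10.5 lens 1 was higher and 1 lower, with a list median of 0.08. These were Fgf12 (1.82 ± 0.25) and Fgf13 (−1.76 ± 0.24), both members of a subfamily that stays inside the cell and does not act through the receptors. Against body at E12.5, Fgf12 was higher (2.89), and Fgf13 (−3.03) and the secreted ligands Fgf18 (−1.71) and Fgf7 (−1.08) were lower. The mean levels of Fgf18 and Fgf7 in E12.5 lens, 4.30 and 4.47, were below the negative control level.

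Of 14 tested other receptors and co-receptors, 1 was higher and 5 lower at E12.5 than at E10.5. Fgfrl1, an FGF receptor without a kinase domain, was higher by 1.52 ± 0.31 (limma, adjusted p = 0.00141), and the glypican Gpc3, a heparan sulfate proteoglycan of the cell surface, was lower (−2.03 ± 0.19, limma, adjusted p = 5.33e-07). Against body at E12.5 Fgfrl1 was higher (1.29) and Gpc3 lower (−4.45). Of 13 tested heparan sulfate enzymes 1 was higher (Ext1, a polymerase of the chain, 0.75) and 3 lower, among them the sulfotransferase Hs6st2 (−1.16) and the sulfatase Sulf1 (−0.82).

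Of 16 tested adaptor and ERK cascade genes, only Nras (0.60) was called higher and only Rps6ka3, an ERK-activated kinase gene, was called lower (−1.06). Among 16 other feedback inhibitors 3 were higher and 6 lower. Dusp9, another ERK phosphatase gene, was lower (−2.44 ± 0.22, limma, adjusted p = 2.81e-07), as was Errfi1, which encodes an inhibitor of the EGF receptor (−1.06 ± 0.27), and Dusp1, a nuclear phosphatase of stress kinases and ERK, was higher by 0.99 ± 0.29. Of 12 tested other ERK-response transcription factors 1 was higher (Mycn, 1.29) and 1 lower (Etv6, −0.98). The list medians for this comparison lay between −0.24 and 0.08, against −0.01 over all genes. Against body at E12.5 the lists gave 1 higher and 3 lower ligands, 2 and 5 co-receptors, 2 and 5 heparan sulfate enzymes, 4 and 4 adaptors and cascade genes, 2 and 7 feedback inhibitors and 3 and 4 transcription factors, with medians between −0.36 and 0.01, against −0.05 over all genes. The background there was 16.6% of genes higher and 26.7% lower.

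**Figure D5:**
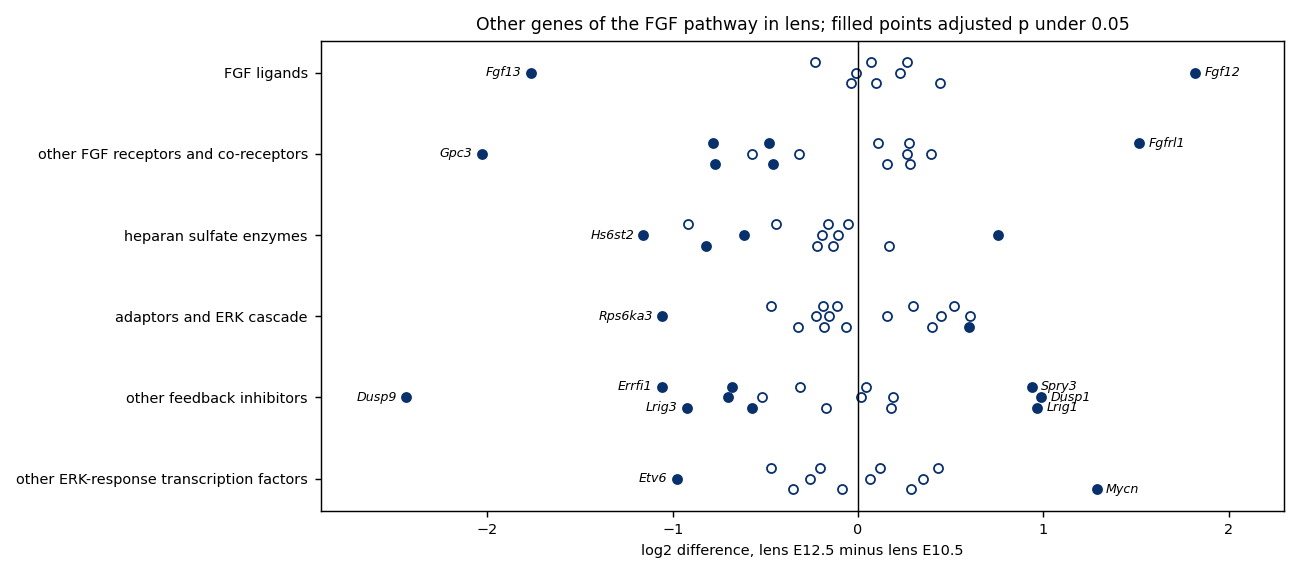
Log2 difference between lens at E12.5 and at E10.5 (x axis) for the tested genes of 6 FGF pathway lists (rows). Filled points passed an adjusted p under 0.05, and called genes with a difference over 0.9 in size are named. In 5 of the 6 rows most points are open, the exception being the other feedback inhibitors, with Fgf12, Fgfrl1 and Mycn at the right and Dusp9, Gpc3 and Fgf13 at the left.

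In tooth germ the lists gave 1 higher and 2 lower ligands of 10 tested, 4 and 1 co-receptors of 14, 1 and 2 heparan sulfate enzymes of 13, 4 and 7 adaptors and cascade genes of 16, 1 and 6 feedback inhibitors of 16, and 1 and 6 transcription factors of 12, with list medians between −0.41 and 0.35, against −0.04 over all genes, of which 16.6% were higher and 25.3% lower. Fgf7, a mesenchymal ligand of a form of Fgfr2, was lower (−1.66), as was Fgf15 (−0.93). Fgf4, an epithelial ligand in the tooth, was higher (0.47). Its mean levels were close to the filter of 5.46, at 5.88 in tooth germ and 5.41 in body, and E12.5 lens read 6.36. The largest differences of the cascade, feedback inhibitor and transcription factor lists were those of Sos2 (−1.64), Spry3 (−1.60) and Ets1 (−2.44), all lower in tooth germ. The adaptor gene Gab1 was higher (1.29) and Nras was lower (−1.17), where E12.5 lens against body gave −0.80 and 1.08. Mycn likewise gave −1.58 in tooth germ and 1.57 in E12.5 lens, each against its own bodies. Il17rd, which encodes the FGF antagonist Sef, was lower than body in both tissues, with −1.16 in tooth germ and −2.82 in E12.5 lens.

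For each receptor the 3 tested genes with the most similar set of 6 group means, each gene centred on its own mean, were found. Both series enter these means, so the distances also take in the difference in level between the series. For Fgfr3 these were Map6, Hspb3 and 1300017J02Rik, at root mean square distances of 0.27, 0.32 and 0.34 on the log2 scale. For Fgfr2 they were 4933439C10Rik, Cep72 and Taf4b, at 0.07, 0.09 and 0.10, and for Fgfr1 Tspo, Vps37b and Srrt, at 0.08 each.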

How the data were processed

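The deposited values are intensity values, 1 per probe set and array; per the submitters' processing notes the authors used RMA and affy version 0.7, whose role is not given in the sources used here. The deposited intensity values are linear (5.4 to 25043.5), and log2 was taken of them with no further normalization. Array medians were 42.5 to 46.5, and arrays of a group correlated at 0.946 to 0.994. The platform annotation of 2016 gives exactly 1 gene for 34945 of the 45101 probe sets. A filter kept genes above 44.1 (5.46 on the log2 scale), the median of all values, on at least 3 arrays, leaving 13320 genes with all 10 members among them. limma 3.58.1 in R 4.3.3 fitted 6 group means over 19 arrays, with Benjamini-Hochberg adjustment over the 13320 genes, and called differences at an adjusted p under 0.05. Tests were two-sided, and the script was tested on simulated data. Receptor ratios used an exact permutation test. The members, gene lists and naming rule (up to 4 called genes per list with the largest differences) were chosen with earlier results of these data known. Deviations of same-numbered arrays correlated above 0.1 in 7 of 9 pairs between lens stages (−0.06 to 0.64): in all 3 between E12.5 and E11.5 (0.40 to 0.64), but not for replicate 2 of E10.5. They correlated at −0.53 to 0.24 between lens and body, and at −0.08 to 0.03 in the tooth series. Pairs of unlike number in the lens series, bodies included, correlated at −0.60 to 0.55, above 0.1 in 18 of 45, against 8 of 18 same-numbered ones. The same-numbered E11.5 and E12.5 arrays also share a control-signal set. Replicate 2 of E10.5, of another set than replicate 2 of E11.5 and of E12.5, gave −0.06 and −0.03 with them. Lens arrays of like set but unlike number, from different stages, gave −0.04 to 0.44. Pairing by number, which the labels do not give, was not tested apart from that split. Fits within control-signal sets were added after seeing the data. Coordinates and promoter windows come from RefSeq, GRCm38.p6. Depth does not apply to arrays, whose number limits the precision.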

Additional observations from a re-analysis of the deposited data

Results flagged for a closer look

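The lens difference from body at E12.5 and the tooth germ difference from body at E13.5 were compared by a test of the gap itself in the same limma fit. The gap passed the threshold for 6 of the 10 genes. It was 3.10 for Fgfr3, where lens gave 1.73 and tooth germ −1.37, and 3.09 for Etv5, where lens gave 1.88 and tooth germ −1.21. It was 1.48 for Dusp4, lower than body in both tissues, with −2.23 in lens and −3.71 in tooth germ. It was 1.38 for Spry2, with 0.33 in lens and −1.05 in tooth germ. It was 0.91 for Spry1, with 1.19 in lens and 0.28 in tooth germ. For Fgfr2 it was −0.85, with −0.13 in lens and 0.72 in tooth germ. These values are of the main probe sets. Other probe sets, dim in tooth germ, gave tooth germ differences of 0.10 for Fgfr3 and 0.65 and −0.15 for Etv5, none called. Their gaps were 1.61 for Fgfr3 and 1.14 and 1.86 for Etv5. The Spry2 and Fgfr2 gaps were called on the main probe set alone. The tissues belong to series whose bodies differ for 63.6% of tested genes and span different stages. Tooth germ and its bodies also differ in bacterial control signal, which cannot be told apart from tissue there.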

How the results depend on the processing

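Of 90 member results 41 were called, and they were recomputed under each alternative. A pseudocount of 16 and the stricter filter changed none of the calls tested; the stricter filter left Spry4 out. The number of members called moved by over 1.5 times as follows. With arrays centred on their median it was 5 at E11.5 and 7 at E12.5 against body. With the mean of all probe sets it was 4 in tooth germ. With only the groups compared in the fit it was 1 for E11.5 minus E10.5 and 1 for E12.5 minus E11.5. Within the high control set it was 5 for E11.5 minus body and 4 for E11.5 minus E10.5, and within the low set 2 for E10.5 minus body and 1 for E11.5 minus E10.5, where fewer arrays were used. The Fgfr3 over Fgfr2 change was 2.77 and the Fgfr1 over Fgfr2 change 0.46 within the low set. The cause of these shifts was not tested.

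Leaving out each array in turn gave 4 to 5 members called for E10.5, 3 to 4 for E11.5 and 4 to 5 for E12.5 against body. It gave 1 to 3 for E11.5 minus E10.5, 1 to 4 for E12.5 minus E11.5, 5 to 6 for E12.5 minus E10.5, 4 to 6 for tooth germ, 4 to 6 for the lens minus tooth gap and 3 to 5 between bodies. The 4 for E12.5 minus E11.5 came without E11.5 replicate 2, the 4 in tooth germ without tooth replicate 2, and the 3 between bodies without body replicate 3 of the lens series. The ratio changes were 3.45 to 4.52 for Fgfr3 over Fgfr2, 2.55 to 3.38 for Fgfr3 over Fgfr1 and 0.67 to 1.14 for Fgfr1 over Fgfr2.

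Direction turned where a call was involved in these cases. Within the high set Fgfr3 at E11.5 minus body was −0.94. With the mean of all probe sets Fgfr3 between bodies was −1.02. On other probe sets, tooth minus body was 0.65 for Etv5 and 0.10 for Fgfr3, E11.5 minus body was −0.12 for Fgfr1, E10.5 minus body was −0.076 for Spry2, the lens minus tooth gap was 0.18 for Fgfr2, and tooth-series minus lens-series body was 0.64 for Fgfr1, 0.15 for Fgfr2, −2.16 for Fgfr3 and 0.94 for Spry2. The Fgfr2 values here and those of Etv5 and Fgfr3 in tooth germ come from probe sets near the negative control level. A further 76 sign changes had no call in either setting.

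With the replicate block, E12.5 minus E10.5 gave 7 members called and E10.5 minus body 5: Spry2 gained a call for E12.5 minus E10.5 (limma, adjusted p = 0.0208) and for E11.5 minus E10.5 (0.038), and Fgfr3 lost its call for E10.5 minus body (0.0634). The block changed no other member call, none of them for E12.5 minus E11.5, the comparison whose same-numbered arrays deviated together in all 3 pairs. Over all genes, the count called for E11.5 minus E10.5 was 568, against 56 with only the groups compared, 2825 and 112 within the high and low sets, and 311 and 207 without E10.5 replicate 1 or 2. For E12.5 minus E11.5 it was 861, against 139 with only the groups compared and 442 without E12.5 replicate 3. Within the low set it was 2790 instead of 4345 for E10.5 minus body and 1454 instead of 2946 for E12.5 minus E10.5. Signals near the negative control level limit what can be said of Spry4, of Dusp4 and Etv5 in tooth germ and of dim second probe sets.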
